A study of Pinus pinaster with 12 samples.

Results

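Of the 6075 root transcripts that carried an m6A peak in the authors' list for ammonium, 1109 (18.3%) had no peak anywhere in the list for water. These transcripts held 1146 of the 6589 ammonium peaks (17.4%) and were 1109 of the 253670 transcript IDs that were counted. They were chosen by the authors' peak calls alone. These are taken here to be calls of IP against input in each treatment, since the caller is not given. Their IP levels and IP/input ratios are thus a description and support nothing about the list. Peaks were listed once per treatment and had no replicates.

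N6-methyladenosine (m6A) is a methylated base of messenger RNA. In Arabidopsis it is set by a methyltransferase complex, removed by demethylases of the ALKBH family and bound by reader proteins with a YTH domain, and it bears on the stability and use of the message. In m6A immunoprecipitation, fragments that carry the base are pulled down with an antibody, so a peak is a stretch of a transcript with more reads in the precipitate (IP) than in the unprecipitated RNA (input). Ammonium is a nitrogen source that conifer roots take up and assimilate into amino acids.

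The libraries were made from poly(A) RNA of whole roots of the conifer Pinus pinaster, maritime pine, at a seedling age of 1 month. Control plants received 80 mL of water and the others 80 mL of 3 mM NH4Cl (ammonium chloride), and roots were taken 24 h later. Plants of both groups had been grown in vermiculite on distilled water and acclimated for 3 days. Each treatment gave 3 input and 3 IP libraries from 3 independent runs of the experiment, and the p-values measure the spread between these. The files give transcripts as IDs without gene names, so functions, root markers and coding positions were not analysed.

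Library totals ran from 69030249 to 81534388 counts in the inputs, from 57945305 to 63522543 in the water IP and from 65539363 to 73185176 in the ammonium IP. Replicate 1 of the water IP stood nearest to the inputs, with a mean correlation of log2 CPM of 0.723 across 148273 transcripts, where the other IP libraries had 0.513 to 0.628 (transcripts are not independent replicates). Levels are in CPM, counts scaled to a fixed library total. Pairs of libraries of 1 group differed by far more than sampling noise (chi-square per degree of freedom 11.9 to 62.1), so each library was counted as a sample.

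Peaks of these transcripts were single and narrow. In the authors' deposited table for ammonium, 1072 of the 1109 transcripts (96.7%) had 1 peak, 37 (3.34%) had 2 and none had more. Of the transcripts with peaks in both lists, 7.15% had 2 ammonium peaks and 0.987% had 3 or more. Widths ran from 90 to 1039 bases with a median of 101, and 615 of the 1146 peaks (53.7%) were at most 110 bases wide. A further 286 peaks (25.0%) had over 110 and up to 160 bases, and 42 (3.66%) were over 300 bases wide. Widths lay within 10 bases of a multiple of 50 at 95.5% of the peaks, so they move in steps and the median stands near the narrowest step.

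The ammonium peaks on transcripts of both lists were wider, with a median of 242 bases, and 16.7% of them were at most 110 bases wide. Peaks of the water list on transcripts with no ammonium peak had the same median as the ammonium-only peaks, 101 bases, and 55.0% were at most 110 bases wide. Narrow peaks were thus as frequent in the water-only as in the ammonium-only set, and no test between lists was made because the peaks have no replicates.

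**Figure D1:**
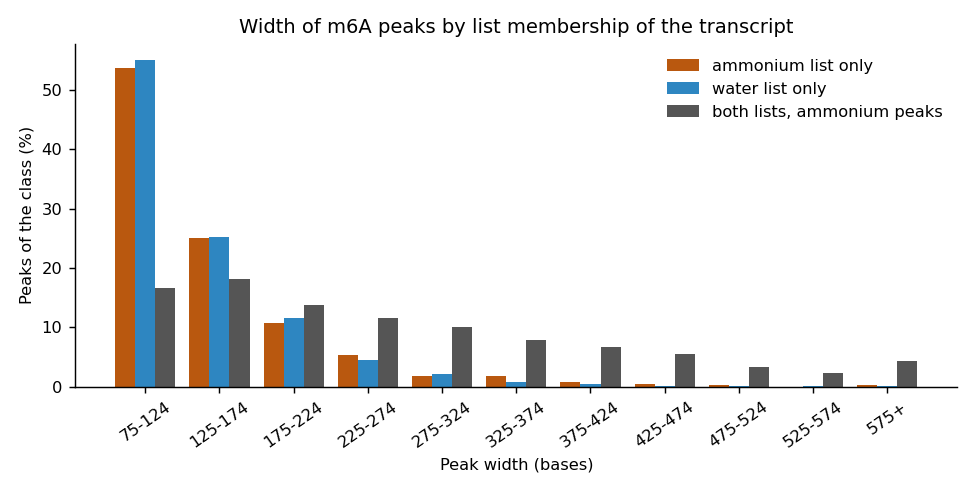
Width of m6A peaks in bases (x axis, classes of 50 bases) against the percent of the peaks of each set (y axis), for transcripts of the ammonium list only, of the water list only and of both lists. Both sets of transcripts found in 1 list have their tallest bar in the narrowest class, whereas 16.7% of the ammonium peaks on transcripts of both lists were at most 110 bases wide.

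Positions are counted along the transcript ID and not in the genome, and transcript lengths were not given. Peaks of the ammonium-only transcripts started between positions 45 and 8819 with a median of 297, and their ends ran from 136 to 8918. By position 500, 747 peaks (65.2%) had started, 131 (11.4%) started by position 60, and 98 (8.55%) started after position 2000. On transcripts of both lists the median start of the ammonium peaks was 430, with 55.5% by position 500 and 11.6% by position 60. The water-only peaks had a median start of 335, with 64.4% by position 500. Without transcript lengths these positions cannot be read as distances from either end of the coding sequence.

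On the 37 transcripts with 2 peaks, the gap between the peaks ran from 92 to 1926 bases with a median of 147, and 13 gaps were under 100 bases. The first peak had the higher fold of the pair in 18 of the 37, by the authors' deposited table. The pair with the highest summed fold lay on pp_105814, at positions 50 to 390 (fold 32.7) and 536 to 633 (fold 4.33) in the authors' deposited table. Its input levels were 0, 0.0397 and 0.0290 CPM with water and 0.0254, 0.0808 and 0 CPM with ammonium, at most 6 reads in a library. Its IP levels were 3.97, 5.54 and 9.97 CPM with water and 7.42, 4.52 and 6.48 CPM with ammonium. The transcript was thus almost unseen in the inputs, and its IP libraries overlapped between treatments.

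The other named transcripts with 2 peaks also had overlapping IP levels. On pp_137647, the peaks at positions 50 to 197 and 981 to 1079 had folds of 24.3 and 2.25 in the authors' deposited table. Its IP held 7.04, 4.64 and 4.95 CPM with water and 4.09, 4.51 and 9.0 CPM with ammonium. On pp_193406, the peaks at positions 100 to 199 and 2126 to 2422 had folds of 5.00 and 17.3 in the authors' deposited table. Its IP held 10.1, 13.5 and 8.58 CPM with water and 10.9, 10.4 and 10.4 CPM with ammonium. The inputs of pp_137647 held 0 to 14 reads a library, whereas those of pp_193406 held 34 to 82 reads, so only the first was almost unseen there.

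The authors' fold enrichment of the ammonium-only peaks was low. In the authors' deposited table it ran from 1.33 to 346 with a median of 5.00, and 564 peaks (49.2%) were under 5. A fold of 20 or more was listed for 70 peaks (6.11%) and a fold of 100 or more for 4. For ammonium peaks on transcripts of both lists the authors' deposited table gave a median of 16.8, with 45.3% at 20 or more, and for water-only peaks a median of 4.64, with 7.59% at 20 or more. Folds of the lists are the authors' values, and ranks from different lists show no change.

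At the edge of the rule, the weakest p-values of ammonium-only peaks in the authors' deposited table were 0.0076 for pp_42976, 0.0021 for pp_91805 and 0.00076 for pp_234950. On the other side, the transcripts that just entered the water list, and were for that reason no members, had best water p-values of 0.0072 for pp_72951, 0.0047 for pp_133507 and 0.0041 for pp_109874 in the authors' deposited table. Only 2 of the 1109 members had a best p above 0.001, and 13 transcripts of both lists had a best water p above it in the authors' deposited table.

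In the authors' deposited table the highest fold was 346, for pp_112491 at positions 1000 to 1500. This transcript had 138, 150 and 137 CPM in the water IP and 160, 143 and 139 CPM in the ammonium IP. Its inputs held 19.3, 21.4 and 20.7 CPM with water and 21.3, 19.5 and 18.0 CPM with ammonium. The IP stood above the input in both treatments, the treatments overlapped, and 7959 to 8842 reads lay on this transcript in each water IP library although the water list has no peak for it.

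Other transcripts with high folds were as well covered in the water IP. The peak of pp_65890 at positions 1666 to 2106 had a fold of 279 in the authors' deposited table, with 260, 173 and 218 CPM in the water IP and 202, 229 and 202 CPM in the ammonium IP. In CPM this transcript as a whole lay below its input, which held 325, 344 and 331 CPM with water and 360, 335 and 313 CPM with ammonium. With TMM scaling its fitted log2 of IP over input was nearer to equal, at -0.09 (SE 0.14) with water and -0.13 (SE 0.11) with ammonium. The peak of pp_247653 at positions 945 to 1293 had a fold of 162 in the authors' deposited table, with 50.6, 92.9 and 75.6 CPM in the water IP and 53.3, 63.6 and 57.8 CPM in the ammonium IP. Both transcripts overlapped between treatments in the IP.

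The next in fold were pp_174522, with 113 at positions 1994 to 2243, and pp_188988, with 90.5 at positions 1348 to 1597, in the authors' deposited table. The IP of pp_174522 held 42.0, 41 and 37.3 CPM with water and 50.2, 47.6 and 51.7 CPM with ammonium, so the treatments did not overlap. That of pp_188988 held 98.5, 120 and 142 CPM with water and 138, 162 and 112 CPM with ammonium, which overlapped. Among the 5 highest folds, pp_174522 was the only transcript whose ammonium IP libraries all lay above its water IP libraries. This IP difference did not pass (adjusted p = 0.464 in edgeR). The inputs of pp_174522 stood above its IP, at 78.5 ± 2.94 CPM with water and 80.0 ± 1.28 CPM with ammonium (SD, n = 3). With TMM scaling its fitted log2 of IP over input was -0.43 (SE 0.14) with water and -0.14 (SE 0.11) with ammonium.

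The lowest fold, 1.33, was listed for pp_168990 at positions 670 to 813 and for pp_210450 at positions 680 to 826 in the authors' deposited table. Both transcripts lay far below their inputs in the IP. For pp_168990 the inputs held 5.91 ± 0.579 CPM with water and 6.16 ± 0.787 with ammonium, and the IP 0.466 ± 0.220 and 0.408 ± 0.0981 (SD, n = 3). For pp_210450 the inputs held 28.6, 26.7 and 24.5 CPM with water and 22.9, 24.3 and 25.6 CPM with ammonium. Its IP held 2.91, 1.53 and 2.02 CPM with water and 0.493, 1.11 and 0.519 CPM with ammonium, so the treatment whose list holds the peak had the lower level.

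The widest peaks lay on well-expressed transcripts. In the authors' deposited table, pp_238731 had a peak of 1039 bases at positions 100 to 1138 (fold 33.3), pp_145513 one of 648 bases at positions 100 to 747 (fold 15.8) and pp_66167 one of 595 bases at positions 150 to 744 (fold 21.3). The IP of pp_238731 held 52.5, 88.5 and 78.0 CPM with water and 103, 107 and 101 CPM with ammonium. The IP of pp_145513 held 53.7, 54.3 and 54.1 CPM with water and 68.6, 60.1 and 56.7 CPM with ammonium. Both were higher in all 3 ammonium libraries, whereas pp_66167 overlapped, with 158, 150 and 150 CPM against 179, 153 and 151 CPM. The narrowest peak, 90 bases at positions 135 to 224 of pp_123534, had a fold of 1.79 in the authors' deposited table.

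Levels of the 1109 transcripts spread widely in the inputs and less so in the IP. The median over the transcripts was 0.589, 0.556 and 0.652 CPM in the water inputs and 0.458, 0.606 and 0.690 CPM in the ammonium inputs. In the IP it was 2.33, 2.41 and 2.35 CPM with water and 2.18, 2.04 and 2.78 CPM with ammonium. The IP medians were about alike in the treatments, with replicate 3 of the ammonium IP the highest. The upper quartiles of the inputs and of the IP came closer, at 6.32 to 6.55 CPM and 6.85 to 8.14 CPM, while the lower quartiles were 0.0245 to 0.0539 CPM in the inputs and 0.915 to 1.25 CPM in the IP. A count of 3 reads is 0.0368 to 0.0435 CPM in the inputs.

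**Figure D2:**
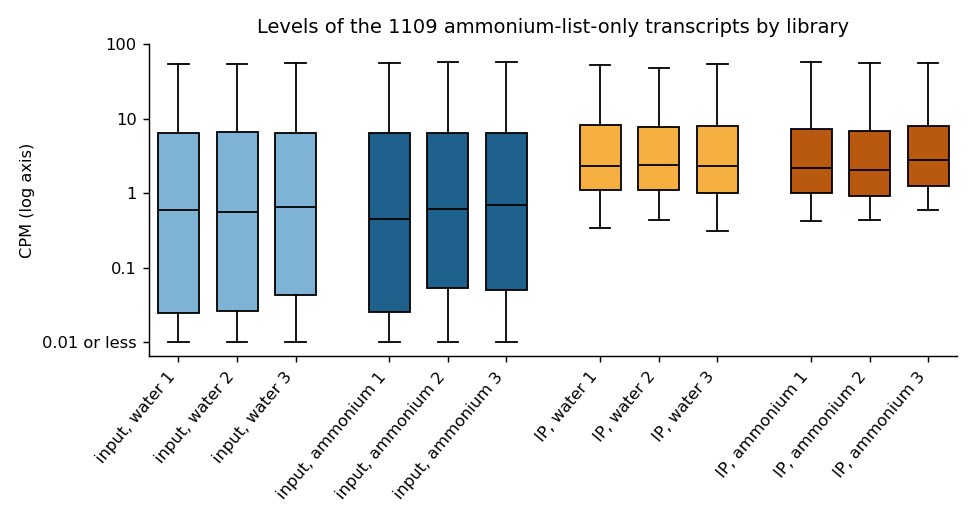
Levels of the 1109 transcripts in each of the 12 libraries, in CPM on a log axis, with values under 0.01 drawn at 0.01. Boxes span the quartiles with the median as a line, and whiskers reach the 5th and 95th percentiles; the IP boxes are shorter than the input boxes because their lower quartiles are 0.915 to 1.25 CPM.

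Together these transcripts took 1.30%, 1.29% and 1.31% of all reads in the water inputs and 1.31%, 1.30% and 1.34% of those of the ammonium inputs. They took 1.49%, 1.41% and 1.53% of the water IP and 1.52%, 1.52% and 1.57% of the ammonium IP, so these ranges overlapped. Against library sizes scaled by trimmed mean of M-values (TMM), the same reads were 1.49%, 1.57% and 1.83% of the water IP and 2.19%, 2.11% and 2.07% of the ammonium IP, which did not overlap. Whether the set as a whole was higher in the ammonium IP thus depended on the scaling. The transcripts with peaks in both lists took 13.1% ± 0.340 of the water inputs and 29.1% ± 1.86 of the water IP, and 13.3% ± 0.0902 and 31.6% ± 0.296 with ammonium (SD, n = 3).

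Many of the transcripts were not seen in the inputs. No read lay on 114 of them in any of the 6 inputs (10.3%), which allows up to 3 reads over these libraries, and 227 had under 10 reads in the 6 inputs together. Of the water-only transcripts 13.1% had no read in the 6 inputs, and of those of both lists 4.33%, so this was not particular to the members. In the IP every member was seen in both treatments. None had 0 reads in all 3 water IP libraries, 1101 had a read in each of them and 1073 (96.8%) had at least 10 reads in each. At least 10 reads in each ammonium IP library were found for 1101. The lowest count of a member over the 3 ammonium IP libraries was 53 reads, and the medians were 480 reads with ammonium and 441 with water. Every transcript of the set was thus detected in the water IP.

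The 114 transcripts without input reads had 118 peaks with a median width of 99.5 bases and a median fold of 4.33 in the authors' deposited table. Their median level was 1.19 CPM in the water IP and 1.06 CPM in the ammonium IP. At the other end, 127 transcripts had 10000 or more reads in the 6 inputs, with peaks of a median width of 150 bases and a median fold of 8.83 in the authors' deposited table. Their median IP level was 28.8 CPM with water and 29.4 CPM with ammonium. Median starts were 194 in the first group and 636 in the last. These groups by input reads were set after the values were seen.

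The narrow width was found at each input level under 10000 reads. In the 4 groups that start at 1, 10, 100 and 1000 input reads, the median width of the ammonium-only peaks was 100 to 101 bases. The ammonium peaks on transcripts of both lists had medians of 150, 147, 151 and 247 bases in the same groups, and 298 bases at 10000 or more reads. Transcripts of both lists also had more IP reads in each group, for instance a median of 4073 reads over the 3 ammonium IP libraries against 1272 at 1000 or more and under 10000 input reads. The part of read depth in the width was not tested.

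Transcript IDs of close number could share sequence and reads. A neighbouring ID, 1 higher or 1 lower, had a peak in the water list for 141 of the 1109 transcripts (12.7%), and in 77 of these cases the positions of a peak overlapped. Start and end both lay within 10 bases in 4 cases. The water-only transcripts had a neighbouring ID in the ammonium list for 116 of 1002 (11.6%). Within the set, 26 transcripts had a neighbouring member. How the authors counted reads that match several transcripts was not stated, so absence from the water list is uncertain for transcripts with such neighbours.

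The most abundant member in the IP was pp_84974, with a peak of 99 bases at positions 244 to 342 and a fold of 2.43 in the authors' deposited table. It held 1430, 1667.9 and 2208.8 CPM in the water IP and 1590.7, 1954.9 and 1649 CPM in the ammonium IP. Its inputs held 222, 208 and 204 CPM with water and 230, 196 and 195 CPM with ammonium. Both treatments stood far above their inputs and overlapped with each other.

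Next in the ammonium IP came pp_192246, pp_72535, pp_209534 and pp_170636. The IP of pp_192246 held 689, 559 and 439 CPM with water and 691, 435 and 530 CPM with ammonium, over inputs of 171 ± 4.04 and 179 ± 9.89 CPM (SD, n = 3). The IP of pp_72535, with a peak at positions 51 to 499, held 401, 453 and 481 CPM with water and 556, 504 and 557 CPM with ammonium. The inputs of pp_72535 were 129 ± 2.40 and 131 ± 3.02 CPM (SD, n = 3). The treatments overlapped for pp_192246 and did not for pp_72535. The IP of pp_170636 held 227, 246 and 274 CPM with water and 309, 266 and 337 CPM with ammonium, which overlapped. The 10 most abundant members together held 30.2% to 31.3% of all reads of the set in the 3 ammonium IP libraries.

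A minority of the transcripts lay below their input in CPM over the whole length. The number depends on the scaling: with ammonium, the members' median log2 of IP over input in edgeR was 2.63 with TMM and 2.08 with library size scaling. In ammonium, 267 of the 1109 transcripts had a lower mean CPM in the IP than in the input, and in water 278. The 278 ammonium peaks on the 267 transcripts had a median width of 147 bases, a median start of 984 and a median fold of 5.52 in the authors' deposited table. The other 868 peaks had a median width of 100 bases, a median start of 250 and a median fold of 4.67 in the authors' deposited table. The median input level with ammonium was 12.7 CPM for the 267 transcripts and 0.201 CPM for the rest.

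The most abundant of these was pp_209534, with 1434.9, 1263.9 and 1421.3 CPM in the water inputs and 1373.4, 1440.6 and 1689.1 CPM in the ammonium inputs. Its IP held 538, 289 and 402 CPM with water and 375, 441 and 496 CPM with ammonium, so every IP library lay below every input library. Its peak at positions 248 to 396 had a fold of 5.21 in the authors' deposited table. The transcript pp_208744 had 353 ± 24.1 and 354 ± 31.8 CPM in the inputs and 183 ± 39.6 and 229 ± 55.2 CPM in the IP with water and ammonium (SD, n = 3). With TMM scaling the fitted log2 of IP over input of pp_208744 was -0.42 (SE 0.16) with water and -0.09 (SE 0.16) with ammonium. The peak of pp_208744 at positions 50 to 199 had a fold of 48.1 in the authors' deposited table. For pp_93812 the inputs held 403 ± 38.9 and 379 ± 37.3 CPM and the IP 84.8 ± 28.1 and 66.5 ± 1.27 CPM (SD, n = 3).

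IP and input were compared with edgeR's quasi-likelihood test on the whole table, called at a Benjamini-Hochberg adjusted p under 0.05. In ammonium 841 of the 1103 members that passed the count filter were higher in the IP (76.2%), against 37.9% of all transcripts tested, and 157 were lower (14.2%), against 48.5%. In water, where no member has a peak, 744 of 1089 were higher (68.3%), against 35.9% of all transcripts tested, and 123 were lower (11.3%), against 32.4%. With library size scaling, 755 members were higher and 211 lower in ammonium (87.6% called, against 86.8% of all). In water they were 655 and 180 (76.7% called, against 70.3% of all). The peak calls are taken to rest on both contrasts, so nothing is read from these counts. The 3 IP libraries lay above the 3 inputs for 768 members in ammonium (69.3%, against 25.1% of all transcripts with a read) and for 706 in water (63.7%, against 25.1%).

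Among the members with over 3 reads in each group, the median ratio of IP to input CPM was 2.73 in ammonium (908 transcripts) and 2.35 in water (901 transcripts). The ratio was at least 2-fold for 516 (56.8%) and 483 (53.6%) of these, against 29.1% and 28.4% of all transcripts. The transcripts of both lists had 56.5% and 53.8%, near the members' shares. It was at most 0.5 for 164 (18.1%) and 150 (16.6%) of the members, against 48.2% and 45.5% of all transcripts. Of the transcripts of both lists these were 8.11% and 7.79%. The transcripts of both lists had medians of 2.40 and 2.24, and those of the water list only 2.16 and 2.42. The water-only set stood in the reverse order, higher in water, while the transcripts of both lists were higher in ammonium, as the members were. The lists are taken to be called from IP against input in each treatment, so nothing is read from this order.

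The input compares the abundance of the transcripts themselves between treatments, in bulk root RNA, where fewer cells of a type and less RNA per cell cannot be told apart. Few members changed in the input. Of the 1109, 743 passed the count filter, and 3 were higher and none lower with ammonium in edgeR's quasi-likelihood test with adjustment over 114887 transcripts. That is 0.404% of the members tested, against 0.424% of all transcripts tested in either direction, 0.383% higher and 0.0409% lower, so the members' share is near the background. DESeq2 called 14 members, all higher (1.88%, against 2.47% of all). An unadjusted p under 0.05 was reached by 62 members (8.34%), against 10.4% of all. The inputs are taken to be the background of the peak calls, so this comparison is not treated as wholly independent of the choice of members.

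The members called in the input were pp_163804, pp_163802 and pp_72518. For pp_163804 the inputs held 3.84, 3.36 and 3.95 CPM with water and 9.23, 15.6 and 14.0 CPM with ammonium, a log2 fold change of 1.85 (SE 0.18, adjusted p = 0.00501 in edgeR). For pp_163802 they held 8.05, 8.01 and 9.36 CPM with water and 16.9, 28.6 and 27.3 CPM with ammonium, a log2 fold change of 1.57 (SE 0.18, adjusted p = 0.0109 in edgeR). For pp_72518 they held 16.2, 11.4 and 17.8 CPM with water and 26.4, 31.9 and 36.4 CPM with ammonium, a log2 fold change of 1.12 (SE 0.15, adjusted p = 0.0188 in edgeR). The ammonium libraries lay above all water libraries in each of the 3 transcripts. None of the 3 passed without replicate 1 of the water inputs, where the adjusted p in edgeR ran from 0.0697 to 0.164, nor in the fit of all 12 libraries. Without replicate 2 of the water inputs pp_163802 (0.0768) and pp_72518 (0.0673) missed the threshold in edgeR, and pp_72518 missed it without replicate 2 (0.0593) or 3 (0.0671) of the ammonium inputs. Over 12 alternatives pp_163804 passed in 10, pp_163802 in 9 and pp_72518 in 6, and the adjusted p in edgeR or DESeq2 ran from 1.72e-14 to 0.345.

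The IP of these 3 transcripts moved with their inputs. For pp_163804 the IP held 12, 13.8 and 18.2 CPM with water and 52.0, 75.7 and 80.2 CPM with ammonium. For pp_163802 it held 14.3, 15 and 20.5 CPM with water and 57.6, 80.1 and 84.0 CPM with ammonium. For pp_72518 it held 52.5, 52.3 and 70.0 CPM with water and 123, 112 and 148 CPM with ammonium. In all 3 the treatments did not overlap in the IP either, and in pp_163802 and pp_163804 the low ammonium library was replicate 1 in IP and input alike.

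The change of the IP/input ratio was fitted for these 3 transcripts as log2 values of 0.68 (SE 0.34) for pp_163804, 0.88 (SE 0.33) for pp_163802 and 0.32 (SE 0.29) for pp_72518. Their peaks lay at positions 392 to 489, 401 to 501 and 448 to 547, with folds of 9.33, 5.00 and 80.2 in the authors' deposited table. The IDs pp_163802 and pp_163804 are close in number, had near-equal values and peaks about 10 bases apart, and could share reads, so they are uncertain as separate transcripts.

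In the lower direction no member passed in the input. The smallest p belonged to pp_200926, with 3.88, 2.45 and 3.81 CPM in the water inputs and 2.36, 1.55 and 1.44 CPM in the ammonium inputs (log2 fold change -0.86, SE 0.25, adjusted p = 0.218 in edgeR). Few members had non-overlapping input libraries. The 3 ammonium inputs lay above the 3 water inputs for 70 members (6.31%, against 4.28% of all transcripts with a read) and below for 41 (3.70%, against 5.78%), and they overlapped for 998. The median log2 fold change of the 743 tested was 0.04, where that of all transcripts was 0.00.

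**Figure D3:**
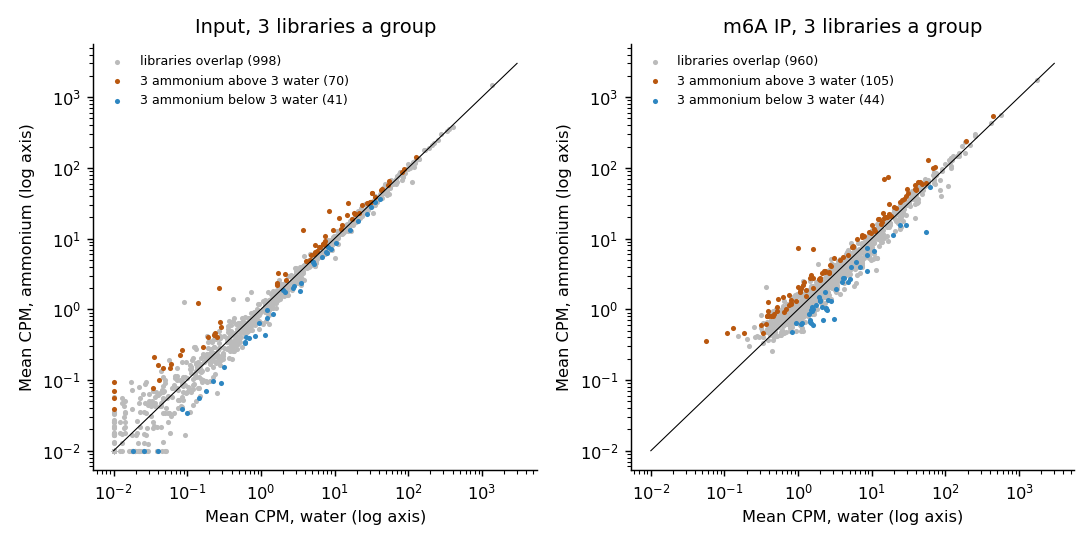
Mean CPM with water (x axis) against mean CPM with ammonium (y axis) for the 1109 transcripts, both on log axes, in the input (left) and in the IP (right), with means under 0.01 drawn at 0.01 and the line of equal levels. Coloured points are transcripts whose 3 libraries of one treatment all lie above those of the other, 70 and 41 in the input and 105 and 44 in the IP; most points lie close to the line in both.

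In the IP, which chose the members, no member passed for ammonium against water with edgeR's quasi-likelihood test (0 of 1108 tested, where 0% of all transcripts passed too). An unadjusted p under 0.05 was reached by 124 members (11.2%), against 10.4% of all, and DESeq2 called 9 (0.812%, against 0.316% of all). The mean IP level differed by less than 2-fold in either direction for 1050 of the 1109 (94.7%). The median ratio of ammonium to water was 1.01 in CPM, with quartiles of 0.828 and 1.21. Most transcripts listed with ammonium only thus had about the same IP CPM in both treatments over their whole length.

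The CPM ratio of all transcripts with over 3 reads in each group lay lower, at a median of 0.685. In edgeR with TMM scaling, the members' median log2 fold change was 0.22 and that of all transcripts -0.23, and with library size scaling they were 0.01 and -0.45. The members' median thus stood above that of all transcripts under both scalings, and its own size rests on the scaling. Transcripts of both lists had a median CPM ratio of 1.03 and those of the water list only 0.700. The ratio was 2-fold or higher for 2.80% of the ammonium-only, 0.322% of the both-list and 0.0998% of the water-only transcripts, and for 2.61% of all transcripts, so the members' share is near the background. It was 0.5 or lower for 2.52%, 1.77% and 22.0% of these sets and for 30.5% of all transcripts.

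**Figure D4:**
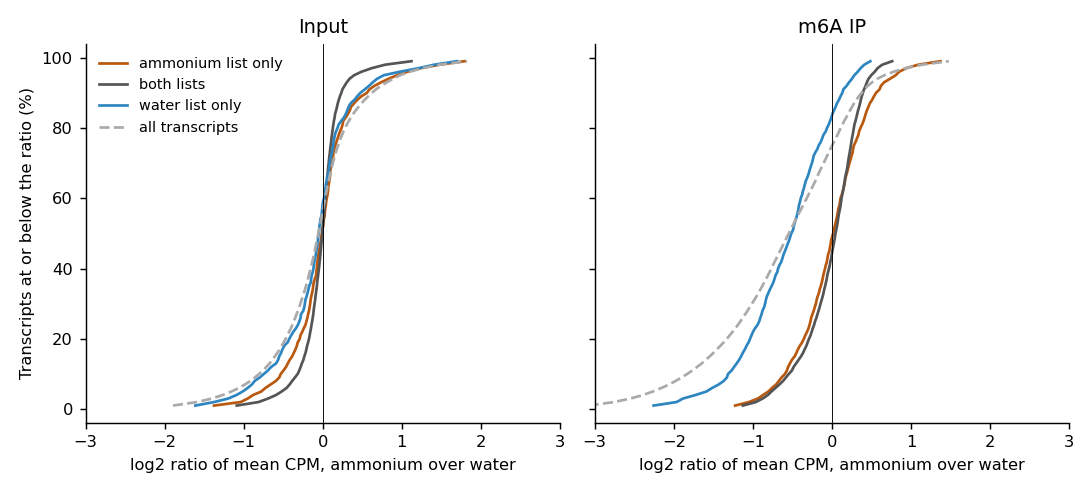
Log2 ratio of mean CPM, ammonium over water (x axis), against the percent of transcripts at or below it (y axis), for the input (left) and the IP (right), with transcripts of the ammonium list only, of both lists, of the water list only and all transcripts with over 3 reads in each group. In the IP the curves of the ammonium-only and both-list transcripts pass close to 0 at their medians (ratios 1.01 and 1.03), and those of the water-only and all transcripts lie to the left (0.700 and 0.685).

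The following counts use CPM on library totals. All 3 ammonium IP libraries lay above the 3 water IP libraries for 105 members (9.47%), against 2.28% of all transcripts with a read. They lay below for 44 (3.97%), against 7.57%. Of the transcripts of both lists 13.0% lay above and 5.52% below, and of those of the water list only 2.5% and 17.7%. A share above that of all transcripts was thus not particular to the members. Of the 105, 18 (17.1%) were also higher in all ammonium inputs, near the 17.8% of all transcripts that were higher in the IP, 87 overlapped in the input and none was lower there. Of the 44, 6 (13.6%, against 9.84% of all transcripts lower in the IP) were also lower in the input and 38 overlapped. Without replicate 1 of the water IP, 163 members (14.7%) lay above and 95 (8.57%) below, against 4.78% and 12.1% of all transcripts, where fewer libraries overlap less by construction. Without replicate 3 of the ammonium IP, 129 (11.6%) lay above and 130 (11.7%) below, against 3.67% and 11.5% of all transcripts, and the median CPM ratio was 0.943. The surplus of higher over lower members was thus gone without that library, while the share of higher members was still above that of all transcripts.

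A 2-fold higher mean in the ammonium IP was found for 31 members (2.80%, against 2.61% of all transcripts), of which 22 did not overlap between treatments. Of the 31, 28 had over 3 input reads in each treatment, and in 19 of these the input was at least 1.5-fold higher too. The same shares among all transcripts with a 2-fold higher IP were not counted, so the 22 and the 19 are not read as traits of the members. Their IP levels were low, with 23 under 1 CPM in the water IP and only 3 over 10 CPM in the ammonium IP, which were the 3 transcripts called in the input.

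The highest fitted change in the IP was that of pp_185263, with 1.04, 0.986 and 0.915 CPM with water and 3.23, 12.4 and 6.10 CPM with ammonium. Its log2 fold change was 3.09 (SE 0.47, adjusted p = 0.459 in edgeR). Over 12 alternatives it passed in 2, without a filter and with DESeq2. Its input held 0.0859, 0.0265 and 0.304 CPM with water and 0.432, 1.84 and 1.37 CPM with ammonium, so both IP and input were higher in every ammonium library, and replicate 2 was the highest in each. Next was pp_39656, whose ammonium libraries were spread from 0.403 to 4.59 CPM in the IP and from 0.0254 to 3.25 CPM in the input. In pp_39656 replicate 3 set the mean, and the treatments overlapped.

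Some members were lower in the IP of the treatment that lists their peak. The IP of pp_212329 held 6.78, 1.05 and 1.31 CPM with water and 1.02, 0.410 and 0.732 CPM with ammonium, with replicate 1 of the water IP far above the others and inputs of 17.2 ± 1.37 and 18.4 ± 0.778 CPM (SD, n = 3). The IP of pp_68996 held 85.2, 25.3 and 53.9 CPM with water and 14.1, 16.2 and 6.29 CPM with ammonium. The inputs of pp_68996 varied as strongly, with 118, 183 and 42.3 CPM with water and 64.0, 90.2 and 32.2 CPM with ammonium, and overlapped. In both transcripts every ammonium IP library lay below every water IP library.

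Among the more abundant members of this kind were pp_138501 and pp_238815. The IP of pp_138501 held 64.4, 60.1 and 59.7 CPM with water and 59.3, 51 and 50.9 CPM with ammonium. This is a small step in CPM between groups that do not overlap. With TMM scaling the fitted log2 change of pp_138501 in the IP was 0.03 (SE 0.17), so the step rests on the scaling. Its peak at positions 199 to 446 had a fold of 74.7 in the authors' deposited table. The IP of pp_238815 held 38.7, 22.9 and 26.8 CPM with water and 19.2, 12.3 and 14.6 CPM with ammonium. Its inputs were 3.23, 3.11 and 4.26 CPM with water and 2.30, 2.20 and 2.57 CPM with ammonium, so every ammonium library lay below every water library in IP and input.

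**Figure D5:**
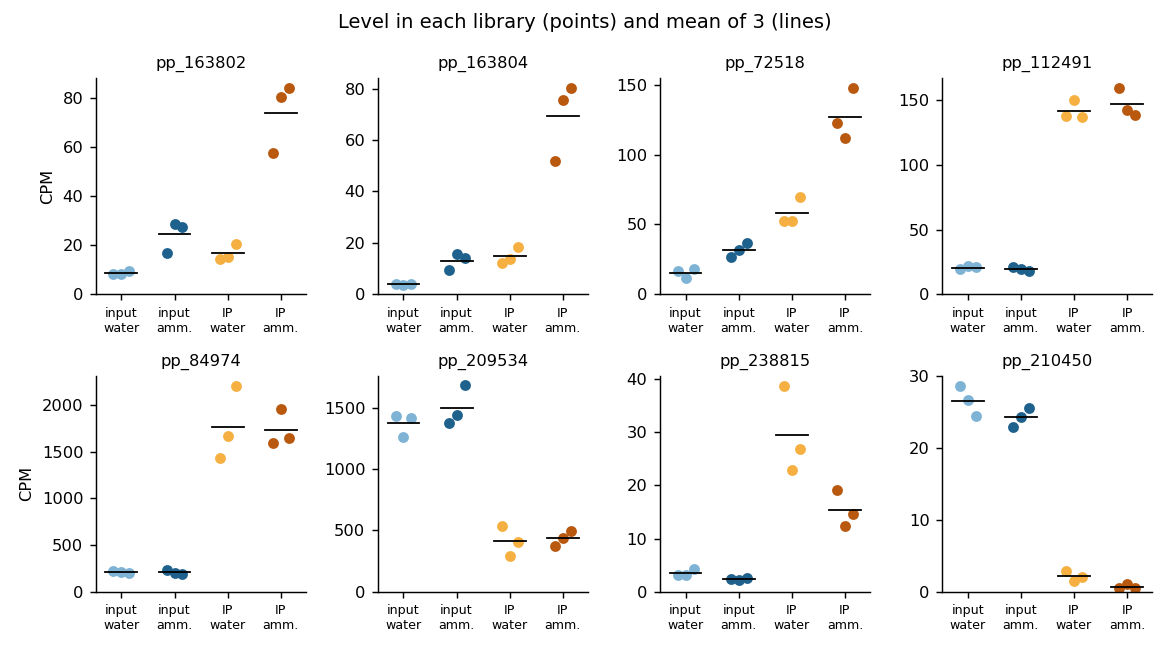
CPM in each library (points, 3 per group) and the mean of 3 (lines) for 8 of the transcripts described, on linear axes that start at 0. The first 3 are higher with ammonium in input and IP, pp_112491 and pp_84974 have alike IP levels in both treatments above their inputs, pp_209534 and pp_210450 lie below their inputs, and pp_238815 is lower with ammonium.

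The ammonium effect on the IP/input ratio is the difference of the contrasts taken to have chosen the members. It passed for none of the 1109 in edgeR's quasi-likelihood test over 148273 transcripts, where 0% of all passed. An unadjusted p under 0.05 was reached by 97 members (8.75%), against 8.84% of all. DESeq2 called no member, where it called 0.0627% of all transcripts, a share too small to set the members apart. The members' median log2 change was 0.32, against -0.22 for all transcripts, and with library size scaling it was 0.04 against -0.50. Counts cover the whole transcript, whereas a peak covers a median of 101 bases, so a change at the peak alone was not measured by these counts.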

How the data were processed

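The authors deposited raw read counts for each transcript ID in 12 libraries and 1 peak list per treatment, with replicates not separated. The submitters' processing notes name bcl2fastq and BWA. Counter, peak caller, settings and reference: not given in the sources used here. Per the file headers, each deposited peak has a fold enrichment. It was taken here as a measure of IP over input, since its formula was not given. The deposited score column holds a p-value, judged from its values. Starts were read as BED starts, so 1 was added to each. Widths equal the authors' block sizes.

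The tests used edgeR 4.0.16 under R 4.3.3 (TMM, default expression filter with minimum count 10 and minimum total 15, robust quasi-likelihood F tests, two-sided, Benjamini-Hochberg over all transcripts tested). Each comparison used its 6 libraries, the ratio all 12. The SE is the log2 fold change divided by the square root of F. CPM uses library totals. DESeq2 1.42.0, other scalings, filters, a block and omission of each library were alternatives. Library size scaling, groups by input reads, width and start classes, and omissions in the counts of non-overlapping libraries were chosen after seeing the data. Tests were checked on simulated data. Members, lists and rules were chosen with earlier results of these data known. Transcripts were named by a rule on fold, width, peak number, level and change.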

Additional observations from a re-analysis of the deposited data

How the results depend on the processing

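The number of members depended on the threshold for the ammonium peaks. With an authors' fold of at least 5 for the ammonium peaks and no cut on the water list, 582 peaks on 577 transcripts were left. Their median width was 143 bases. With the more significant p-values of the ammonium list 359 peaks on 343 transcripts were left. The input calls (3) were 12 without a filter (1.21% of members, 1.20% of all transcripts), 14 with DESeq2 (1.88%, 2.47%), 0 of members and of all in the fit of all 12 libraries and 0 to 25 when 1 library was left out, with 0 without replicate 1 of the water inputs, 1 without replicate 2 (0.130%, 0.0744%) and 25 (19 higher, 6 lower, 3.27% against 4.08%) without replicate 1 of the ammonium inputs. The IP calls (0) were 17 without a filter (1.53%, 0.877%), 9 with DESeq2 (0.812%, 0.316%), 15 in the fit of all 12 libraries (1.35%, 0.593%) and 0 to 2 when 1 library was left out, the 2 without replicate 2 of the water IP (0.180%, 0.0313%). With TMM sizes the members took 1.04% and 1.09% of the water and ammonium inputs and 1.63% and 2.12% of the IP, with median levels of 0.477 CPM in the water inputs and 2.61 and 3.20 CPM in the IP. Members with all ammonium IP libraries above the water ones numbered 129 to 185 (11.6% to 16.7%, against 3.65% to 4.90% of all transcripts) when 1 IP library was left out. The cause of these moves was not tested.

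The numbers of the titles were not taken to pair the libraries, since not every correlation was over 0.1: deviations of same-numbered libraries correlated at -0.0016 to 0.0720 between the inputs and -0.00946 to 0.0573 between the IP, and 4 of 6 libraries correlated best with their own number in each. Between input and IP the correlations were -0.0619 to 0.0262 with water (2 of 6 best with their own number) and 0.0697 to 0.108 with ammonium (6 of 6), a hint from the data that the ammonium numbers are shared. With the replicate block, 5 members were called in the input (0.673%, against 0.780% of all) and 2 in the IP (0.181%, against 0.00801%). Those in the IP were pp_163802 and pp_163804, each with an adjusted p of 0.00344 in edgeR with the block and 0.0717 without it. Most members have under 5 CPM in the ammonium IP (757 of 1109), where depth limits the precision of a single transcript.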

Other observations

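The fold values of the members without input reads were coarse. For the 118 peaks on transcripts without an input read, 111 (94.1%) had a fold that, multiplied by 3, lay within 0.02 of a whole number, in the authors' deposited table. Of the peaks under a fold of 20 on transcripts with 1000 or more input reads, 36.6% did, whereas the first share had no limit on fold. How the caller computes the fold is not given in the sources used here.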
